A study of Mus musculus with 6 samples.

Results

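A set of 9 genes of innate defence in the skin, called members below, was followed in mouse handpads, the paddle-shaped ends of the embryonic forelimbs. They were chosen by name, with earlier results of these data known, and are 9 of the 34989 genes in the transcript tables. They comprise the interleukin-1 family genes Il1a, Il1b, Il1rn, Il18 and Il33, the cytokine gene Tslp, and the antimicrobial protein genes Slpi, Lcn2 and Defb1. Polyadenylated RNA of handpads at E14.5, a stage of digit formation, was sequenced from 3 wild-type and 3 Grhl3 knockout samples, all on a C57BL/6 background. Grhl3 encodes a transcription factor of the grainyhead family that acts in surface epithelia, and the series as titled concerns epithelial migration and periderm in digit separation. The knockout is given as Grhl3-/- in the design text. The sources used here do not give how the allele was made, which part of the gene it removes, or whether a sample was 1 embryo or a pool. The p-values therefore rest on the spread of these 6 samples alone, and that spread may be technical.

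Keratinocytes store several interleukin-1 family cytokines inside the cell and release them on damage, so that they act as alarm signals. IL-1 alpha and IL-1 beta act through a shared receptor, and the product of Il1rn occupies that receptor without signalling. IL-18 and IL-33 have receptors of the same family, TSLP acts through a different kind of receptor on immune cells, and SLPI, lipocalin 2 and beta-defensin 1 limit bacteria or the proteases of inflammation at epithelial surfaces.

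The libraries held 38052692 to 56037639 estimated counts, and 3 counts, the limit that a count of 0 allows in a library, correspond to 0.0535 to 0.0788 CPM, the unit of counts scaled to library size. Grhl3 itself stood at 14.3, 45.7 and 18.5 CPM in wild-type against 3.11, 2.86 and 2.95 CPM in Grhl3 knockout libraries (log2 fold change -3.14, SE 0.41, adjusted p = 0.0221, edgeR quasi-likelihood test). Y-linked expression was high in wild-type replicates 2 and 3 only, and ribosomal protein genes took 9.67% of counts in wild-type replicate 1 and 6.14% to 8.45% elsewhere. Because no knockout library had high Y-linked expression, a fit with a Y-linked covariate rests mainly on wild-type replicate 1 against the knockout libraries. The tissue was whole, and limb mesenchyme markers summed to 5635 to 7995 CPM against 2008 to 4781 CPM for 20 pan-epithelial markers. In such bulk samples, fewer cells of a type and less RNA per cell cannot be told apart.

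All 9 members were scarce in the handpad, and no member passed the test between the genotypes. Among those tested, Slpi showed the largest difference, with 3 to 10 counts in wild-type and 21 to 33 in knockout libraries. Il18 and Il33 were higher on average in the knockout but overlapped between the groups, and Il1a, Il1rn, Tslp and Defb1 had intervals that included 0. The other 2 members, Il1b and Lcn2, did not reach the count filter and are too low to judge. By mean log2 CPM, the tested members lay between the 5.6 and the 24.4 percentile of all tested genes. Across 16938 genes, 73 were called at an adjusted p under 0.05, which is 0.431% of those tested, and 0 of the 7 tested members were among them (edgeR quasi-likelihood test). DESeq2, limma-voom and the likelihood ratio test also called 0 of the 7.

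**Figure D1:**
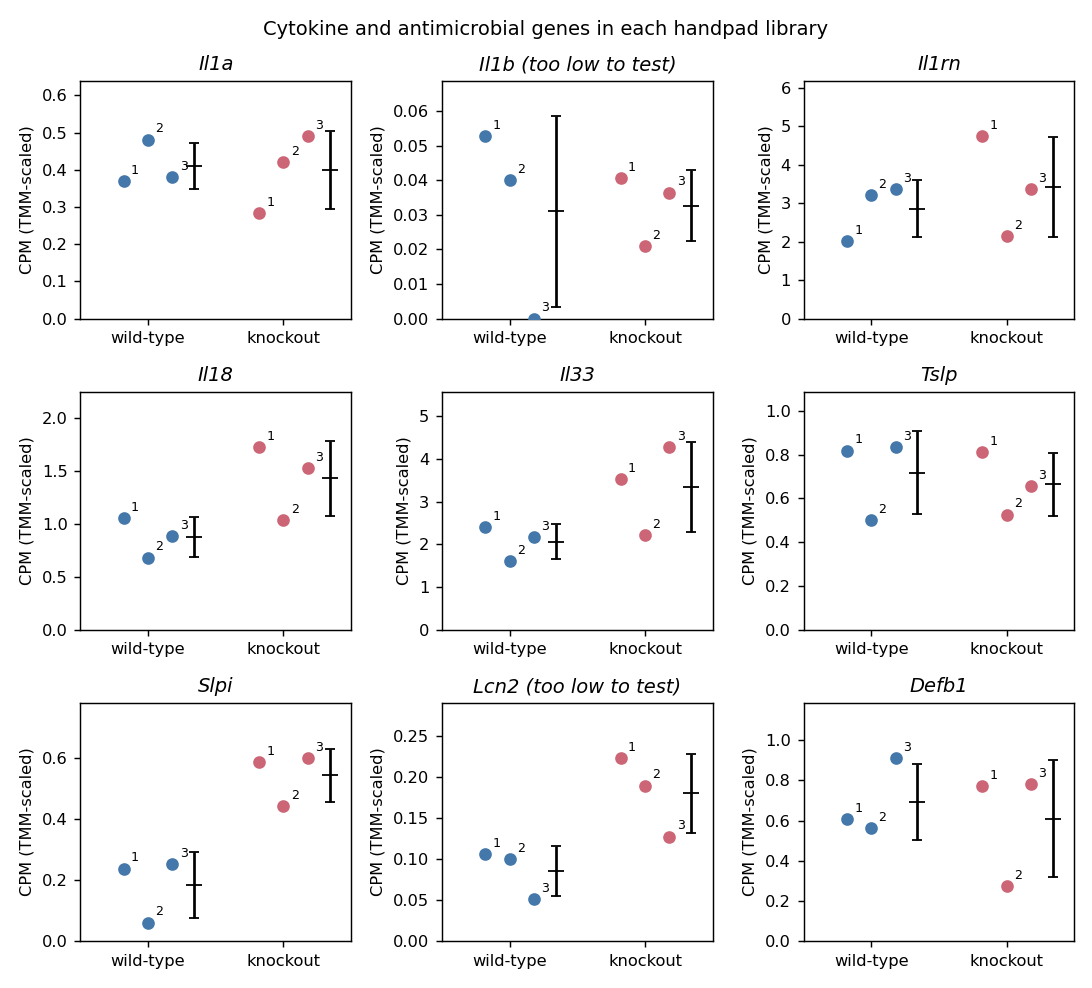
Expression of the 9 genes in CPM (library sizes scaled by TMM, linear axes from 0) in 3 wild-type (blue) and 3 Grhl3 knockout (red) libraries, with replicate numbers beside the points and black bars for mean ± SD. The knockout points of Slpi and Lcn2 lie above all wild-type points, and those of the other genes overlap with wild-type.

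Slpi encodes secretory leukocyte protease inhibitor, a small secreted protein that inhibits neutrophil elastase and has antimicrobial activity. Its gene lies on the minus strand of chromosome 2 (ENSMUSG00000017002.14, 164354070 to 164389095, mm10). It measured 9, 3 and 10 counts in wild-type replicates 1, 2 and 3, and 29, 21 and 33 counts in knockout replicates 1, 2 and 3. On the CPM scale these were 0.238, 0.0602 and 0.253 in wild-type and 0.589, 0.442 and 0.601 in knockout libraries, so every knockout library was above every wild-type library. Groups that do not overlap, with the knockout higher, were found in 6.77% of all tested genes. The log2 fold change was 1.60 (SE 0.49, unadjusted p = 0.0102, adjusted p = 0.392, edgeR), with an approximate 95% interval from 0.49 to 2.71. All 3 knockout libraries and wild-type replicates 1 and 3 reached the filter, which asks for 3 libraries. The group sums were 22 counts in wild-type (exact Poisson 95% interval 13.8 to 33.3) and 83 in knockout (66.1 to 103), which cover counting error only. The smallest adjusted p over its alternatives was 0.0528, with the likelihood ratio test, and the largest was 0.908, without knockout replicate 1.

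The 250 bases before the RefSeq start site of Slpi (GRCm38.p6, chr2:164356508-164356757, minus strand) are shown because Slpi had the largest difference among the tested members. They were searched on both strands for the grainyhead motif AACNGGTT, the AP-1 motif TGANTCA and the kappaB motif, and held 0 matches.
Slpi promoter: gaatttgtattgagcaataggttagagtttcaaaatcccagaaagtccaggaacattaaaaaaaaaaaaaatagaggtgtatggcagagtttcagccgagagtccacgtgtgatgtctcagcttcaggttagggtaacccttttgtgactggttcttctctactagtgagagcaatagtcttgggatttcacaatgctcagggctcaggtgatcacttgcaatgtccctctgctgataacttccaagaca
In the same window of 32851 RefSeq promoters, AACNGGTT occurred in 1.79%, TGANTCA in 6.75% and the kappaB motif in 7.25%. Of the members, Il1a and Il1rn held a match to one or more of these, and Tslp and Defb1 had no entry in the table.

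Lcn2 encodes lipocalin 2, which binds bacterial iron carriers and is made by stressed epithelia and by neutrophils, from chromosome 2 (32384633 to 32388252, minus strand, mm10). It measured 4, 5 and 2 counts in wild-type and 11, 9 and 7 counts in knockout libraries, and thus did not overlap between the groups. The share of 6.77% without overlap is over tested genes, and no such share was taken for genes as low as Lcn2. The sums were 11 counts (exact Poisson 95% interval 5.49 to 19.7) and 27 counts (17.8 to 39.3), and fewer than 3 libraries reached the filter. With a filter at a minimum count of 3, the log2 fold change of Lcn2 was 1.04 (SE 0.52, adjusted p = 0.776, edgeR). Its 2674 distinct stretches of 31 bases occurred in no other annotated gene, so the low counts were not divided with a close relative.

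Genes that mark neutrophils, where Slpi and Lcn2 are also known to be expressed, were also scarce. Their 10 markers summed to 3.59 to 4.09 CPM in wild-type against 3.49 to 6.56 CPM in Grhl3 knockout libraries, and 0 of 5 tested were called (edgeR). Camp, the cathelicidin of neutrophil granules, had 2, 0 and 2 counts in wild-type and 20, 8 and 6 in knockout libraries. S100a8, a calprotectin subunit of neutrophils and stressed keratinocytes, had 10, 4 and 11 counts in wild-type and 75, 19 and 19 in knockout libraries (log2 fold change 1.89, SE 0.70, adjusted p = 0.552, edgeR). Ngp, another granule protein, had 0, 1 and 0 counts against 27, 6 and 2, and it and Camp were named after their values were seen. The receptor genes Csf3r and Cxcr2, which made up most of the summed CPM of this list in each wild-type library, had log2 fold changes of -0.39 (SE 0.27) and -0.14 (SE 0.30), so the tested genes of the list were split, 3 positive and 2 negative. The part of these cells in the Slpi and Lcn2 values was not tested. The sum of liver markers was also higher in every knockout library (7.90 to 10.7 CPM in wild-type, 12.7 to 93.2 CPM in knockout), with knockout replicate 2 the highest. In knockout replicate 3, Apoa1, Apoa2 and Trf of this list lay within the wild-type range. Slpi in knockout replicate 2 had 21 counts, against 29 and 33 in knockout replicates 1 and 3, and Lcn2 lay between those libraries. The part of liver markers in the Slpi and Lcn2 values was not tested either.

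Defb1, the gene of a beta-defensin made constitutively by many epithelia, had an interval that included 0. It measured 0.608, 0.562 and 0.911 CPM in wild-type against 0.771, 0.274 and 0.783 CPM in Grhl3 knockout libraries. The groups overlapped, and the lowest value came from knockout replicate 2, with 13 counts. Its log2 fold change was -0.18 (SE 0.43, adjusted p = 0.992, edgeR), with an interval from -1.16 to 0.81, and its sign turned without wild-type replicate 3 and also without knockout replicate 2.

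Of the IL-1 receptor ligands, Il1a was detected in every library and Il1b barely at all. Both genes lie on the minus strand of chromosome 2 (mm10), Il1a at 129299610 to 129309972 and Il1b at 129364570 to 129371139. Il1a, whose product is held in keratinocytes as an active precursor, measured 0.370, 0.481 and 0.380 CPM in wild-type against 0.284, 0.421 and 0.491 CPM in Grhl3 knockout libraries. The groups overlapped, with knockout replicates 1 and 3 the lowest and the highest of all. The fitted log2 fold change was -0.04 (SE 0.34, adjusted p = 0.9996, edgeR), and its interval from -0.82 to 0.73 corresponds to 0.565-fold to 1.66-fold. Il1b, the form made mainly by activated myeloid cells, had 2, 2 and 0 counts in wild-type and 2, 1 and 2 in knockout libraries. Its group sums of 4 (exact Poisson 95% interval 1.09 to 10.2) and 5 (1.62 to 11.7) allow no statement on a difference.

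Il1rn, which encodes the IL-1 receptor antagonist, measured 2.01, 3.21 and 3.37 CPM in wild-type against 4.75, 2.15 and 3.37 CPM in Grhl3 knockout libraries. The knockout libraries held both a value near the lowest wild-type library and the highest value of all, in knockout replicate 1. The estimate for Il1rn was 0.26 in log2 units (SE 0.32; adjusted p = 0.969, edgeR), with an interval from -0.48 to 0.99, and was 0.79 with a Y-linked covariate (adjusted p = 0.458). In TPM, a share of the library corrected for transcript length, Il1rn exceeded Il1a 5.14-fold, 8.80-fold and 11.4-fold in the wild-type libraries and 22.4-fold, 7.12-fold and 6.63-fold in the knockout libraries. The log2 ratio of antagonist to ligand, on the log2(TPM + 0.1) scale, was 2.62 ± 0.61 in wild-type and 2.92 ± 0.86 in knockout libraries (SD, n = 3 each). The difference of 0.29 was smaller than either SD (exact permutation test, two-sided, p = 0.7, where the smallest p possible is 0.1). The antagonist was above the ligand in all 6 libraries.

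Il1rn has an upstream and a downstream start on the plus strand of chromosome 2 (24336853 to 24351494, mm10), and its transcripts give proteins that stay in the cell or are secreted. The start does not by itself set the form, since Il1rn-202 begins at the downstream start and lacks the secreted coding start. The coding starts of 3 annotated transcripts are printed because they are what separates these forms. Capitals mark the coding bases before the 468 bases that all 3 share, and the lower case letters are the first of the shared ones. The long start of Il1rn-201, of 66 bases, is that of the secreted form, and those of Il1rn-204 (9 bases) and Il1rn-202 (18 bases) replace it.
Il1rn-201: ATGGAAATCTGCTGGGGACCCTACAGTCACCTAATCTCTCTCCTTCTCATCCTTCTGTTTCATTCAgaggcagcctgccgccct
Il1rn-202: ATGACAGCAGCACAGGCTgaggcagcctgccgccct
Il1rn-204: ATGGCTTCAgaggcagcctgccgccct
Il1rn-201 and Il1rn-202 begin at 24345310 and 24345288, and Il1rn-204 begins at 24336853 on chromosome 2 (mm10).

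The transcripts of the upstream start took 56.1%, 12.3% and 27.3% of the Il1rn counts in wild-type and 11.1%, 22.7% and 39% in knockout libraries. The downstream start gave most of the counts in 5 of 6 libraries, and wild-type replicate 1 was the exception. Il1rn-201 had 31.7, 126.8 and 86.7 estimated counts in wild-type and 186.8, 67.6 and 111.1 in knockout libraries. Il1rn-204 had 42.6, 16.6 and 36.4 in wild-type and 24.9, 23.2 and 72.2 in knockout libraries. Neither Il1rn-201 (log2 fold change 0.43, SE 0.55) nor Il1rn-204 (log2 fold change -0.03, SE 0.66) passed the test, both with adjusted p = 0.9999 (edgeR per transcript). Of the 30 annotated transcripts of the members, 10 could be tested and 0 were called, against 1 of 47052 transcripts in all, or 0.00213%. At an unadjusted p under 0.05 there was 1 of the 10, Slpi-201. The transcripts of Il1rn share 1776 of the 1986 bases of Il1rn-201 with Il1rn-204, and Il1rn-204 also ends further downstream, at 24351494 against 24350936. Reads at both ends therefore bear on the division and on the start shares given above.

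The promoters of both starts are shown because the isoforms begin there. Capitals mark motif matches, and the matches are descriptions of the letters only.
Il1rn upstream start, chr2:24336610-24336859, plus strand, GRCm38.p6: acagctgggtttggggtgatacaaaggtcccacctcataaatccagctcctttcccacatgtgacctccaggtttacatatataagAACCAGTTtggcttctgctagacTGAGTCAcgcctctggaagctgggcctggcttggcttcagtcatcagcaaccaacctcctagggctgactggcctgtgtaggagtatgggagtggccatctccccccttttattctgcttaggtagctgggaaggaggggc
Il1rn downstream start, chr2:24345041-24345290, plus strand, GRCm38.p6: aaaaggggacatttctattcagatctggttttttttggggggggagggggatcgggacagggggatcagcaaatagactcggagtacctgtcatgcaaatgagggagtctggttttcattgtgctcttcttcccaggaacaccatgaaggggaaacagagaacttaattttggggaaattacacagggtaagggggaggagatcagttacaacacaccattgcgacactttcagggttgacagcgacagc
The upstream window held AACCAGTT, a match to the grainyhead motif that begins 164 bases before the start site, and TGAGTCA, a match to the AP-1 motif that begins 141 bases before it. The downstream window held 0 matches to the 3 motifs. Il1a held 1 match, to the AP-1 motif (TGACTCA), beginning 12 bases before its start site.

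**Figure D2:**
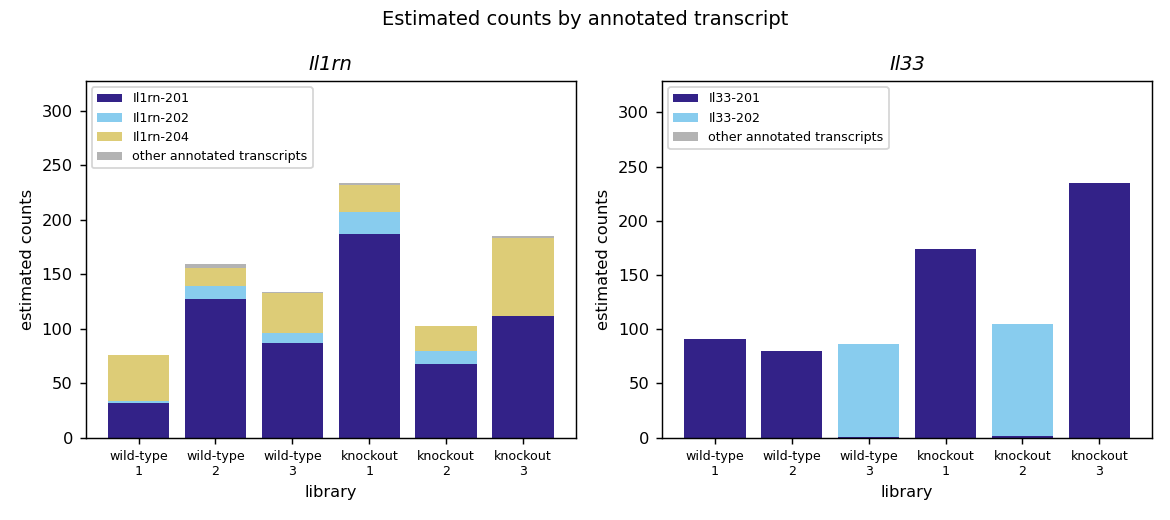
Stacked bars of estimated counts (linear axis from 0) assigned to each annotated transcript of Il1rn (left) and Il33 (right) in the 6 libraries. The secreted form Il1rn-201 holds most counts except in wild-type replicate 1, and Il33 counts fall almost wholly on 1 of 2 transcripts in each library.

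Il18 (chromosome 9, 50554827 to 50581840, plus strand, mm10) and Il33 (chromosome 19, 29925114 to 29960718, plus strand, mm10) had the next largest differences among the tested members. Il18, whose product is cut to its active form by caspase-1 and acts on lymphocytes, measured 1.06, 0.682 and 0.886 CPM in wild-type against 1.73, 1.03 and 1.53 CPM in Grhl3 knockout libraries. Knockout replicate 2 lay just below wild-type replicate 1, and the other knockout libraries lay above all wild-type libraries. The log2 fold change was 0.71 (SE 0.30, unadjusted p = 0.0407, adjusted p = 0.648, edgeR), with an interval from 0.04 to 1.39. Of its 2 main transcripts, the more abundant had a log2 fold change of 0.79 (SE 0.46) and the other of 0.49 (SE 0.39), and neither passed the test (adjusted p = 0.9999 for both, edgeR per transcript).

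Il33 encodes a nuclear cytokine that is released from damaged epithelial and endothelial cells. It measured 2.40, 1.61 and 2.18 CPM in wild-type against 3.53, 2.21 and 4.28 CPM in Grhl3 knockout libraries. As for Il18, knockout replicates 1 and 3 were above all wild-type libraries and knockout replicate 2 was within the wild-type range. The log2 fold change was 0.70 (SE 0.29, unadjusted p = 0.0382, adjusted p = 0.636, edgeR), with an interval from 0.05 to 1.35. With a Y-linked covariate in the fit, the log2 fold changes were 0.40 for Il18 (unadjusted p = 0.378) and 0.47 for Il33 (unadjusted p = 0.296, edgeR). The authors' deposited table, which lists 941 genes, gives Il33 a log2 fold change of 0.70 at a false discovery rate of 0.672. The authors' deposited table gives Il18 a log2 fold change of 0.71 at a false discovery rate of 0.671. The largest p in that table is 0.0506, and the other 7 members have no row in it. The likelihood ratio test run here gave Slpi an unadjusted p of 0.00082, and why Slpi has no row in the authors' deposited table was not tested.

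Counts of Il33 fell almost wholly on 1 of 2 transcripts in each library. Il33-201 had 91, 80 and 0.7 estimated counts in wild-type and 174, 1.2 and 235 in knockout libraries. Il33-202 had 85.3 in wild-type replicate 3 and 103.8 in knockout replicate 2, and 0 in the other libraries. The split did not follow genotype. Both transcripts have the same coding exons and share 2475 of 2544 exonic bases of Il33-201, so the assignment rests on the few bases they do not share. The gene-level values above sum both transcripts.

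The receptor subunit of IL-33, Il1rl1, which is strong on mast cells, measured 7.37, 9.49 and 8.78 CPM in wild-type against 11.0, 7.81 and 13.2 CPM in Grhl3 knockout libraries (log2 fold change 0.32, SE 0.20, adjusted p = 0.874, edgeR). Knockout replicates 1 and 3 were again the highest, as in Il33. Mast cell markers summed to 145, 126 and 124 CPM in wild-type against 194, 112 and 235 CPM in Grhl3 knockout libraries. Of 7 mast cell genes tested, 0 were called and 2 were higher at an unadjusted p under 0.05 (edgeR). Endothelial markers, from a cell type that also makes IL-33, summed to 416 to 427 CPM in wild-type against 464 to 509 CPM in Grhl3 knockout libraries, with 0 of 10 called (edgeR). Their part in the Il33 values was not tested.

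Tslp, an epithelial cytokine that primes dendritic and mast cells, measured 0.819, 0.501 and 0.835 CPM in wild-type against 0.812, 0.527 and 0.655 CPM in Grhl3 knockout libraries. The knockout values lay inside the wild-type range. For Tslp the log2 fold change was -0.10 (SE 0.32, adjusted p = 0.994, edgeR), with an interval from -0.84 to 0.64, or 0.559-fold to 1.55-fold. The gene of its specific receptor chain, Crlf2, did not overlap between the groups, with 4.40 to 5.24 CPM in wild-type against 5.81 to 7.33 CPM in Grhl3 knockout libraries. Such groups, with the knockout higher, were found in 6.77% of all tested genes. Crlf2 missed the threshold (log2 fold change 0.46, SE 0.16, adjusted p = 0.494, edgeR).

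**Figure D3:**
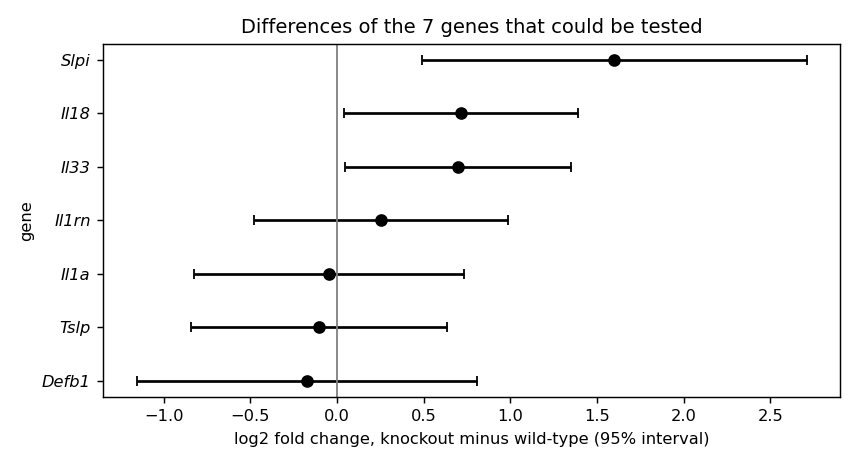
Log2 fold change, knockout minus wild-type, of the 7 tested genes (points) with approximate 95% intervals (bars, from edgeR). The intervals of Slpi, Il18 and Il33 lie above 0 before adjustment over all genes, and those of the other 4 genes cross 0.

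Before adjustment over all genes, 3 of the 7 tested members (Slpi, Il18 and Il33) were higher in the knockout at p under 0.05, against 3.81% of all tested genes (edgeR). The genes were chosen with earlier results known, so the count is a description. The median log2 fold change of the tested members was 0.26, against -0.004 over all tested genes. With libraries scaled on the 20 pan-epithelial markers, the median of all tested genes moved to -0.56. In the main fit the log2 fold changes of these markers ran from -0.45 (Rab25) to 1.27 (Cldn7). The scaling therefore also carries differences of single markers and is not a measure of epithelial RNA alone. The members then had log2 fold changes of 0.99 (Slpi), 0.11 (Il18), 0.08 (Il33), -0.29 (Il1rn), -0.53 (Il1a), -0.71 (Tslp) and -0.77 (Defb1), and 0 passed the test (adjusted p = 0.152 to 0.850, edgeR). Relative to the shifted median, these were 1.55 for Slpi, 0.67 for Il18, 0.64 for Il33, 0.27 for Il1rn, 0.03 for Il1a, -0.15 for Tslp and -0.21 for Defb1. Taking off the median largely undoes a shift common to all genes, so values near those of the main fit follow from the arithmetic. Pan-epithelial markers summed to 2008, 3473 and 2164 CPM in wild-type against 4781, 3535 and 4608 CPM in Grhl3 knockout libraries, so knockout replicate 2 had the least of its group, as it did for Il18, Il33 and Slpi. Wild-type replicate 2 had the most of its group and the least Il18, Il33 and Slpi. The part of epithelial content in the members' values was not tested further.

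Per transcript length and over both genotypes, the members ranked from Il18 down to Il1b. The order differed within the groups. In wild-type Il1rn (2.45 TPM) was above Il18 (2.03 TPM), Tslp (1.05 TPM) above Il33 (1.01 TPM) and Il1a (0.281 TPM) above Lcn2 (0.194 TPM). In the knockout Il33 (1.56 TPM) was above Defb1 (1.34 TPM) and Slpi (1.24 TPM) above Tslp (0.932 TPM). The mean TPM over the 6 libraries was 2.63 ± 0.88 for Il18, 2.58 ± 1.11 for Il1rn, 1.49 ± 0.58 for Defb1, 1.29 ± 0.43 for Il33 and 0.992 ± 0.228 for Tslp (SD, n = 6). It was 0.838 ± 0.493 for Slpi, 0.283 ± 0.124 for Lcn2, 0.268 ± 0.060 for Il1a and 0.0339 ± 0.0195 for Il1b (SD, n = 6). Of the 8 pairs of neighbours in this order, none differed at an adjusted p under 0.05 (exact sign-flip permutation test over 6 libraries). The pairs were set by the same TPM values that were tested. A single pair at the smallest possible p also cannot pass after adjustment over 8 pairs, so this test cannot decide on single pairs. The lowest adjusted p was 0.167, for Il1rn over Defb1, Slpi over Lcn2 and Il1a over Il1b, the last of which was above its neighbour in 6 of 6 libraries with an unadjusted p of 0.03125, the smallest that 6 libraries allow.

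For the 3 members with a mean of at least 1 CPM, the tested genes with the most similar pattern over the 6 libraries were found by Pearson correlation of log2 CPM, given without a p-value. Cgnl1 and Pcdhgb5 lay nearest to Il1rn (r = 0.992 and 0.993). Slc15a3 and Cdkn1a lay nearest to Il18 (r = 0.99 and 0.987). Skap1 and Fam174a lay nearest to Il33 (r = 0.988 and 0.986). Each pair is the best of 16938 genes over 6 libraries, whose values share depth and composition. Cdkn1a, a cell cycle inhibitor, measured 42.6, 28.7 and 35.3 CPM in wild-type against 82.3, 49.7 and 72.6 CPM in Grhl3 knockout libraries. It was picked for its likeness to Il18, so its lowest and highest libraries being those of Il18 follows from that choice.

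The wider pathways around these genes were tested as 10 lists with 143 symbols, of which 108 genes could be tested. None was called by edgeR or limma-voom, and 1, Areg, by DESeq2 and by the likelihood ratio test. Unadjusted p-values were under 0.05 for 9 of them, 6 with a positive and 3 with a negative fold change, which is 8.33% against 7.22% of all tested genes (edgeR). The median log2 fold change was 0.05.

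Among other IL-1 family genes, the IL-36 ligand gene Il1f9 (Il36g) measured 4.15, 3.29 and 5.59 CPM in wild-type against 1.97, 2.30 and 3.29 CPM in Grhl3 knockout libraries. It was the only one of 3 tested genes in this list with an unadjusted p under 0.05 (log2 fold change -0.78, SE 0.27, adjusted p = 0.493, edgeR). With pan-epithelial scaling, which called 298 genes lower, Il1f9 was called lower (-1.37, adjusted p = 0.0192, edgeR). It remained below the shifted median of all genes. Il18bp, a secreted decoy that binds IL-18, measured 4.07, 5.70 and 6.22 CPM in wild-type against 3.999, 4.49 and 3.51 CPM in Grhl3 knockout libraries (log2 fold change -0.42, adjusted p = 0.77, edgeR). All 3 tested genes of this list had negative fold changes, with a median of -0.46. Il1f6 (Il36a) was at 0 counts in every library.

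The receptors and the signalling chain downstream were near the median of all genes. Of 10 IL-1 family receptors, 0 were called, 0 had an unadjusted p under 0.05, and the median log2 fold change was 0.03 (edgeR). Il1rl2, the receptor of the IL-36 ligands, measured 9.72 ± 1.33 CPM in wild-type against 11.8 ± 1.24 CPM in Grhl3 knockout libraries (SD, n = 3, adjusted p = 0.792, edgeR). Of 16 genes from Myd88 to Rela, which carry the signal to NF-kB, 0 were called and the median was 0.03. On the log2 scale the difference was 0.18 (SE 0.11) for Rela, an NF-kB subunit, and 0.20 (SE 0.12) for Myd88, the receptor adaptor.

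Among 16 NF-kB target and feedback genes, 0 were called and the median was 0.05 (edgeR). Bcl3, an inhibitor-like partner of NF-kB, measured 1.80, 1.22 and 1.47 CPM in wild-type against 3.02, 2.19 and 3.19 CPM in Grhl3 knockout libraries (log2 fold change 0.91, SE 0.25, adjusted p = 0.298, edgeR). Ptgs2, the inducible cyclooxygenase, measured 0.238, 0.481 and 0.557 CPM in wild-type against 0.893, 0.864 and 1.24 CPM in Grhl3 knockout libraries (log2 fold change 1.22, SE 0.36, adjusted p = 0.374, edgeR). Neither gene overlapped between the groups, as in 6.77% of all tested genes with the knockout higher, and both had an unadjusted p under 0.05.

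Of 17 inflammasome and cytokine processing genes, 0 were called, and Pycard, the adaptor that joins sensors to caspase-1, measured 19.6 ± 1.41 CPM in wild-type against 15.4 ± 1.59 CPM in Grhl3 knockout libraries (SD, n = 3, log2 fold change -0.35, adjusted p = 0.482, edgeR). For Cast, the inhibitor of calpains, the estimate was 0.32 in log2 units (SE 0.15; adjusted p = 0.727, edgeR). Of 8 genes of TSLP reception, 0 were called, and for Stat3 the estimate was 0.21 in log2 units (SE 0.10; adjusted p = 0.738, edgeR). Of 7 lipocalin receptor and iron genes, 0 were called, and Slc22a17, a lipocalin 2 receptor, measured 96.5, 116 and 115 CPM in wild-type against 68.1, 83.2 and 91.2 CPM in knockout libraries (log2 fold change -0.43, SE 0.13, adjusted p = 0.364, edgeR). Slc22a17 was called lower with pan-epithelial scaling (-0.96, adjusted p = 0.038, edgeR). That scaling moved the median of all tested genes to -0.56 and called 298 genes lower, against 14 in the main fit. Hmox1, the haem oxygenase, had a log2 fold change of 0.16 (adjusted p = 0.968, edgeR).

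Of 17 other keratinocyte cytokines and chemokines that could be tested, 0 were called (edgeR). Areg, which encodes the EGF receptor ligand amphiregulin, measured 0.713, 0.582 and 0.683 CPM in wild-type against 1.73, 1.18 and 1.62 CPM in Grhl3 knockout libraries (log2 fold change 1.20, SE 0.26, adjusted p = 0.16, edgeR). It passed with the likelihood ratio test (adjusted p = 0.0153) and with DESeq2 (adjusted p = 0.0438). Il34, a ligand of the macrophage receptor CSF1R that epidermis makes for Langerhans cells, measured 0.792, 0.843 and 0.734 CPM in wild-type against 2.50, 1.01 and 1.66 CPM in Grhl3 knockout libraries (log2 fold change 1.12, SE 0.35, adjusted p = 0.402, edgeR). Both genes were higher in every knockout library than in any wild-type library, as were 6.77% of all tested genes. Il6, Csf2, Csf3, Ccl20, Il24 and Cxcl2, cytokines of acute skin inflammation, did not reach the filter, and none of these had more than 11 counts in any library. Other inflammatory cytokine genes of the list, Tnf, Cxcl1, Cxcl3, Cxcl5, Ccl2 and Il23a, did reach the filter and were not called (edgeR). Il20 was at 0 counts in every library. All genes named here from Il6 to Il20 were named after their values were seen.

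Of 11 other antimicrobial genes that could be tested, 0 were called, with a median of 0.17, and S100a8 was the one with an unadjusted p under 0.05 (edgeR). Lyz2, the lysozyme of macrophages, measured 22.6 ± 1.90 CPM in wild-type against 27.2 ± 4.94 CPM in Grhl3 knockout libraries (SD, n = 3, adjusted p = 0.792, edgeR). The beta-defensin genes Defb3, Defb4, Defb6 and Defb14 had 0 counts in all 6 libraries, which allows up to 0.0535 to 0.0788 CPM per library, and they were named after their values were seen. Of the relatives of Slpi with WAP domains, 3 could be tested and 0 were called (edgeR). Wfdc1 measured 9, 3 and 6 counts in wild-type and 17, 13 and 14 in knockout libraries, and Wfdc3 11, 16 and 13 against 6, 12 and 10.

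**Figure D4:**
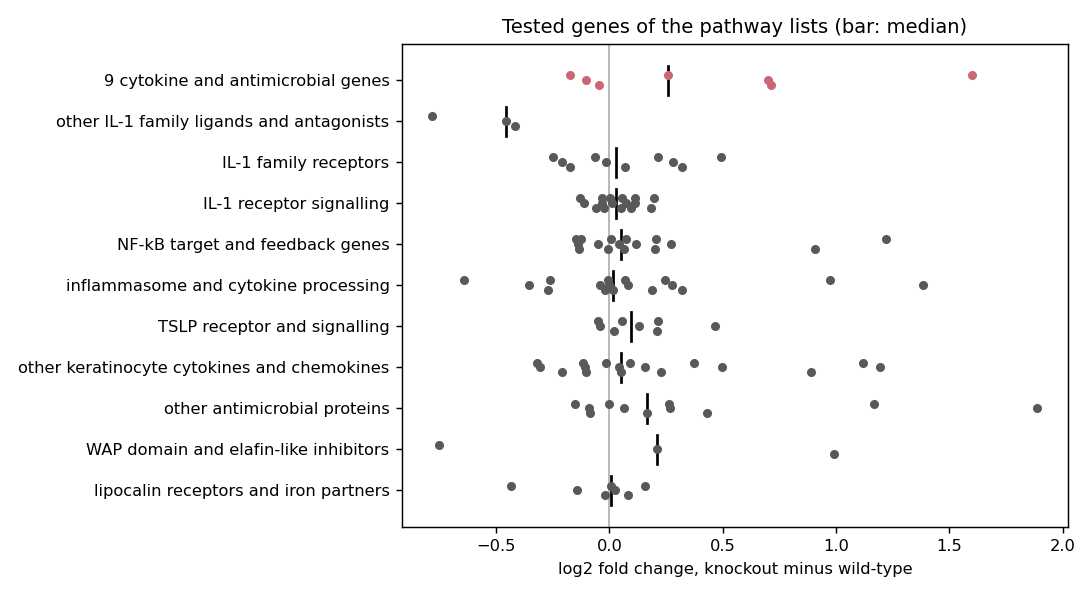
Log2 fold change, knockout minus wild-type, of each tested gene (points) in the 9 genes and in 10 pathway lists, with the list median as a bar. Medians lie between -0.46 and 0.26, and single genes such as S100a8 (1.89) and Slpi (1.60) lie to the right.

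Markers of the cells that could carry these transcripts differed between the lists. Of 10 periderm genes, 7 were higher, with sums of 311 to 507 CPM in wild-type against 802 to 1496 CPM in Grhl3 knockout libraries (edgeR). Krt4, a keratin of the same list, went the other way, with 37.6, 83.4 and 46.5 CPM in wild-type against 22.4, 13.1 and 14.2 CPM in Grhl3 knockout libraries (log2 fold change -1.75, adjusted p = 0.0785, edgeR), and was named after its values were seen. Of 20 pan-epithelial genes, edgeR called 1 higher, the likelihood ratio test 5, DESeq2 8 and limma-voom 1, and 17 had a positive fold change. Macrophage markers summed to 179 to 226 CPM in wild-type against 191 to 270 CPM in Grhl3 knockout libraries and lymphocyte markers to 2.17 to 2.63 and 1.88 to 2.49 CPM, with 0 of 13 and 0 of 4 called (edgeR). Their part in the values of the 9 genes was not tested.

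**Figure D5:**
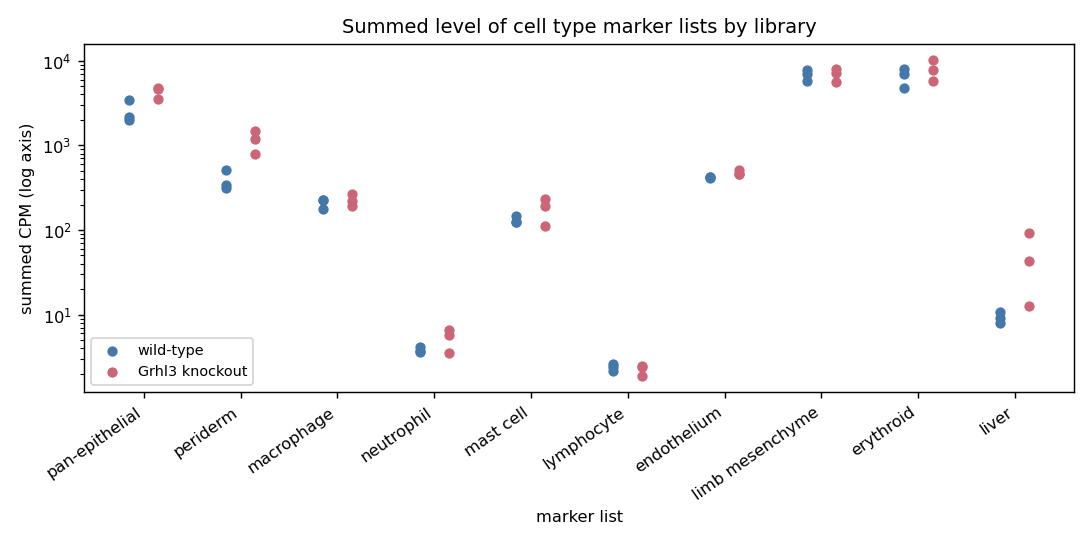
Summed CPM (log axis) of 10 cell type marker lists in the 3 wild-type (blue) and 3 Grhl3 knockout (red) libraries. Pan-epithelial, periderm, endothelium and liver markers do not overlap between the groups, and neutrophil and lymphocyte markers sum to under 7 CPM in every library.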

How the data were processed

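RNA of 6 handpad samples was sequenced with a stranded Illumina mRNA kit, per the labels' protocols. FastQC, kallisto and mm10 are named per the submitters' processing notes, and versions and the transcript set are not given there. The deposited tables give estimated counts, not normalized and fractional where transcripts share reads, and TPM, per the file headers. The authors' deposited comparison, an edgeR table by its name, gives log2 fold changes, log2 CPM, a likelihood ratio score, p-values and a false discovery rate.

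Of 111462 transcripts, 110203 matched GENCODE M21 by unversioned identifier. The other 1259, with 0.504% to 0.566% of the counts, were left out. Estimated counts were summed per gene and rounded. Genes passing filterByExpr (minimum count 10, minimum total 15) were tested with edgeR 4.0.16 (glmQLFit, glmQLFTest, TMM, R 4.3.3), with Benjamini-Hochberg adjustment over all 16938 genes and calls under 0.05. A positive fold change means a higher level in the knockout. Intervals are the fold change plus or minus the t quantile times the standard error, which was derived from the F statistic. The fit was tested on simulated counts for the same genes. It recovered 20.6% of 1.5-fold, 61.2% of 2-fold and 93% of 4-fold changes, and 7.2% of its calls were false. These shares are over all tested genes, most of which were more abundant than the members. A member that was not called may therefore still differ. Alternatives were other scalings, filters, tests (DESeq2 1.42.0, limma-voom 3.58.1), effective length offsets, a replicate block, a Y-linked covariate and each library left out.

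Genes named were the 9 members, per list the called genes or else the 2 with the smallest p, and the 2 nearest in pattern, and model names were left out. The members and lists were chosen with earlier results of these data known. Listed symbols absent from the annotation were matched through RefSeq synonyms, which found 4 (the Il36 genes). Promoters are from RefSeq (GRCm38.p6), and 7 of 9 members matched. The libraries carried no molecular identifiers that the sources name, so intervals and floors from counts cover counting error only. The order tests, the isoform start shares, the motif search and the check of shared 31-base stretches were added after the files were seen.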

Additional observations from a re-analysis of the deposited data

How the results depend on the processing

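The number of members called was 0 in the main analysis and in each of 20 alternatives, and the number of their transcripts called was 0 in each of 9. The count over all genes, 73, became 379 with pan-epithelial scaling, 118 with no filter, 299 with DESeq2, 260 with the likelihood ratio test, 45 with limma-voom, 44 with effective length offsets and 47 with the replicate block, and 10 to 206 when a library was left out. Leaving out wild-type replicates 1, 2 and 3 gave 206, 45 and 10, and leaving out knockout replicates 1 and 3 gave 17 and 22. The count of pathway genes called became 2 with pan-epithelial scaling and 1 with DESeq2 or the likelihood ratio test. The cause was not tested. The log2 ratio of Il1rn to Il1a, at 0.29, ran from -0.2 to 0.557 when a library was left out. Il18, Il33 and Slpi kept the sign of their fold changes in all alternatives that tested them. Without wild-type replicate 2 or 3, or knockout replicate 1 or 3, Il18 had unadjusted p = 0.133, 0.0815, 0.144 and 0.103 (edgeR). For Il33 these fits gave 0.121, 0.068, 0.0917 and 0.157. Il18 and Il33 stayed under 0.05 when either other library was left out, and Slpi when any library was. Pan-epithelial scaling gave 0.812, 0.833 and 0.0816 for Il18, Il33 and Slpi (edgeR). DESeq2 gave Il18 0.0522. Il1a turned to 0.144 with the Y-linked covariate, 0.094 when wild-type replicate 2 was left out and 0.149 when knockout replicate 1 was (range -0.224 to 0.149 over single libraries left out). Il1rn stood at -0.287 with pan-epithelial scaling, which moved the median of all genes to -0.56, so that it lay 0.27 above that median, and it turned to -0.052 when knockout replicate 1 was left out (range -0.052 to 0.497). Tslp turned to 0.006, 0.018 and 0.034 when wild-type replicate 1, wild-type replicate 3 or knockout replicate 2 was left out (range -0.312 to 0.034). Defb1 turned to 0.035 with the Y-linked covariate, 0.062 when wild-type replicate 3 was left out and 0.165 when knockout replicate 2 was (range -0.398 to 0.165). The deviations of same-numbered libraries from their group means correlated at -0.23, -0.094 and -0.155. Such deviations sum to 0 within each group, so these values cannot settle whether the replicate numbers pair the samples. With the replicate block the Slpi fold change was 1.66 (adjusted p = 0.463, edgeR). With a Y-linked covariate the Slpi fold change was 1.18 (unadjusted p = 0.146, adjusted p = 0.485, edgeR). In that fit Slpi, Il18 (0.404) and Il33 (0.468) all had an unadjusted p above 0.05, while Il1rn was 0.789. That fit rests mainly on wild-type replicate 1 against the knockout libraries, so it cannot separate Y-linked expression from genotype well. For Slpi, leaving out wild-type replicate 1 gave 1.85 (adjusted p = 0.162). The filter on CPM above 1 in 3 libraries left Il1a, Tslp, Slpi and Defb1 untested. Counts of 0 to 11 per library limit what can be said of Il1b, Lcn2 and wild-type Slpi.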
